A study of Mus musculus with 14 samples.

Results

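The cytotoxic lymphocyte and CD8 genes described here are Gzmb, Gzma, Prf1, Nkg7, Ccl5, Cd8a, Cd8b1, Klrd1 and Klrk1. They were listed by name, with earlier results of these data known, and each was read from the row whose first gene symbol was that name. All 9 were found, each as 1 transcript cluster (the probes that read 1 gene), among the 22203 transcript clusters with 21902 gene symbols that were tested. They were measured in Foxp3-expressing CD4+ T cells, the regulatory T cells (Tregs) that restrain other immune cells.

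Expression was profiled on 14 Clariom S mouse arrays from total RNA of Tregs taken from mixed bone marrow chimeras on the C57BL/6 background. In these animals, CD45.2+ marrow of a Foxp3-Cre donor and CD45.1+ wild-type marrow had been given together to sublethally irradiated Rag1-/- hosts, which lack T and B cells of their own, and had reconstituted for 6 to 8 weeks. Donors of the control group, labelled het, were Atg14 +/fl, those of the group labelled KO were Atg14 fl/fl, and both carried the Cre recombinase with YFP under the Foxp3 promoter, so that loxP-flanked DNA is removed in Foxp3-expressing cells. The Atg14 protein belongs to a complex of the lipid kinase Vps34 that acts in autophagy. CD45.2+ CD4+ Foxp3-YFP+ cells were sorted into central Tregs (cTregs, CD44 low and CD62L high) and effector Tregs (eTregs, CD44 high and CD62L low), with 4 arrays for each subset of the controls and 3 for each subset labelled KO. The labels name spleen and peripheral lymph nodes as the tissue and the methods name the spleen. Nothing in the labels ties an array to an animal, so p-values measure the spread between these arrays. The study counts 4 control and 3 Atg14 fl/fl chimeras for the sorting of both subsets, so arrays of the same number may share an animal. The main fit did not use such pairs.

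Cytotoxic lymphocytes, mainly CD8 T cells and natural killer (NK) cells, kill by releasing granules onto a target cell. Perforin (Prf1) opens the target's membrane to granzymes, serine proteases such as granzyme B (Gzmb) and granzyme A (Gzma), and Nkg7 is a membrane protein of these granules. Ccl5 is a chemokine made by effector T cells and NK cells. CD8 is the co-receptor for MHC class I, built from alpha (Cd8a) and beta (Cd8b1) chains, and CD4+ T cells normally silence both genes. Klrd1 (CD94) pairs with NKG2 proteins to read Qa-1, and Klrk1 (NKG2D) reads stress ligands on other cells. Granzyme B is also made by activated Tregs.

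The regions just upstream of Gzmb, Nkg7 and Prf1 are shown because these 3 genes had the largest differences between the Treg subsets of the controls, Gzmb and Nkg7 upward and Prf1 downward. Each sequence is the 250 bases before the gene's start in RefSeq on GRCm38.p6, read 5′ to 3′ on the strand of the gene. They lie at chr14:56262335-56262584 on the minus strand for Gzmb, chr7:43436888-43437137 on the plus strand for Nkg7 and chr10:61297586-61297835 on the plus strand for Prf1. Capitals mark TGTGGT, the core bound by RUNX factors, AGGTGT, the core bound by T-box factors such as T-bet and Eomes, and TGANTCA, the AP-1 motif, each searched on both strands.
Gzmb: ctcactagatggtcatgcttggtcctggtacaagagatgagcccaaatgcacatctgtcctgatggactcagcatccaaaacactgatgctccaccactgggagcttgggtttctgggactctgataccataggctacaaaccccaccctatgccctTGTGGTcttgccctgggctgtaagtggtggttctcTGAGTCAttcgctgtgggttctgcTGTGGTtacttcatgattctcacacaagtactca
Nkg7: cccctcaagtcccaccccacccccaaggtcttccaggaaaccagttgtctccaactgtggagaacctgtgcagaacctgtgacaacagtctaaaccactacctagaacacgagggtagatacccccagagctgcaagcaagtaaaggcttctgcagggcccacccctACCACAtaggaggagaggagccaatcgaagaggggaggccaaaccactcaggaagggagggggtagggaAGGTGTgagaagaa
Prf1: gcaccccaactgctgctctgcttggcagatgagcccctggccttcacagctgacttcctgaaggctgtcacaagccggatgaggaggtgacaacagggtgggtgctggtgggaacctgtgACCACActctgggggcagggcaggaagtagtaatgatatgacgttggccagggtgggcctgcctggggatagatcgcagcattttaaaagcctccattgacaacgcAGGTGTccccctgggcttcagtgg

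The promoter table held 6 of the 9 genes, and not Cd8b1, Ccl5 or Klrd1. Upstream of Gzmb there were 2 RUNX matches and 1 AP-1 match. Nkg7 and Prf1 each had 1 RUNX match and 1 T-box match, so the gene that was higher in eTregs and the gene that was lower shared both kinds of letters. The RUNX letters were in 5 of the 6 regions, all but Cd8a, the T-box letters in 3 (Gzma, Nkg7 and Prf1) and the AP-1 letters in 1 (Gzmb), and no matches overlapped each other. Among all 32841 promoters of 27018 genes in windows of the same length, 14% held the RUNX letters, 11.8% the T-box letters and 6.8% the AP-1 letters. A match describes the letters and does not show a bound site.

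The sorted cells carried the labelled identity, and the genotype label could not be checked from the array. Foxp3 lay between 12.73 and 13.12, Cd3e between 13.05 and 13.25 and Cd4 between 12.46 and 12.75 on the log2 scale of signal on all 14 arrays. The targeted gene, Atg14, was not lower where the label said KO. It lay at 9.24, 9.33 and 9.29 in cTregs labelled KO and at 9.26, 8.96, 8.64 and 8.89 in control cTregs, and at 9.15, 9.004 and 9.32 in eTregs labelled KO and at 8.92, 9.01, 8.77 and 8.64 in control eTregs. Where the probes sit relative to the deleted part was not known here, so groups are called by their labels throughout. Median signal was 8.77 to 8.90 on the 14 arrays, medians of the negative control probe sets were 7.92 to 8.54, and medians of the 23 background probe sets were 6.00 to 6.30. Array KO eTreg 1 stood apart from KO eTreg 2 and 3 on the first principal component (34.5% of the variance), at -4.30 against 39.9 and 39.5, with control eTregs at 5.26 to 21.9 and cTregs at -26.6 to -12.8. KO eTreg 2 and 3 also carried the highest signal of monocyte and macrophage markers, described below, and calls among subsets labelled KO are therefore also given with KO eTreg 1 as the lone array of its group, which is then assumed to vary like the arrays of the other groups.

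Effector Tregs of the controls differed from central Tregs of the controls in 5 of the 9 genes. Gzmb, Nkg7 and Ccl5 were higher in eTregs, by 4.71-fold, 2.70-fold and 1.60-fold, while Prf1 and Cd8b1 were lower, by 2.46-fold and 1.54-fold. The dimmer side of 3 of these lay among the negative control probe sets. Of those sets, 39.3% to 54.6% were below Gzmb and 41.2% to 51.9% below Ccl5 in control cTregs. Below Prf1 in control eTregs were 50.4% to 59.8%. For Ccl5 the brighter side was not clearly above them either, with 56.8% to 68.7% below it in control eTregs. The folds of these 3 genes therefore rest on signal not distinguished from background and are not exact. The call asks for a log2 change of at least 0.5 with a limma p below 0.05 after Benjamini-Hochberg adjustment over all 22203 transcript clusters (the adjusted threshold). By that rule 3 of 9 members were higher, against 2.14% of all transcript clusters, and 2 of 9 were lower, against 0.919%. The arrays of both subsets did not overlap for the same 5 genes, 3 higher (6.12% of all transcript clusters) and 2 lower (5.02%). Among cells labelled KO, Gzmb and Nkg7 passed (2 of 9 higher against 2.02%, and 0 of 9 lower against 0.329%). There the arrays did not overlap for 5 genes, Gzmb, Nkg7, Ccl5, Klrd1 and Klrk1, all higher in eTregs (6.46% of all), and for no member lower (7.49% of all). In this and the other comparisons of bulk RNA, more cells with a transcript and more transcript per cell cannot be told apart.

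**Figure D1:**
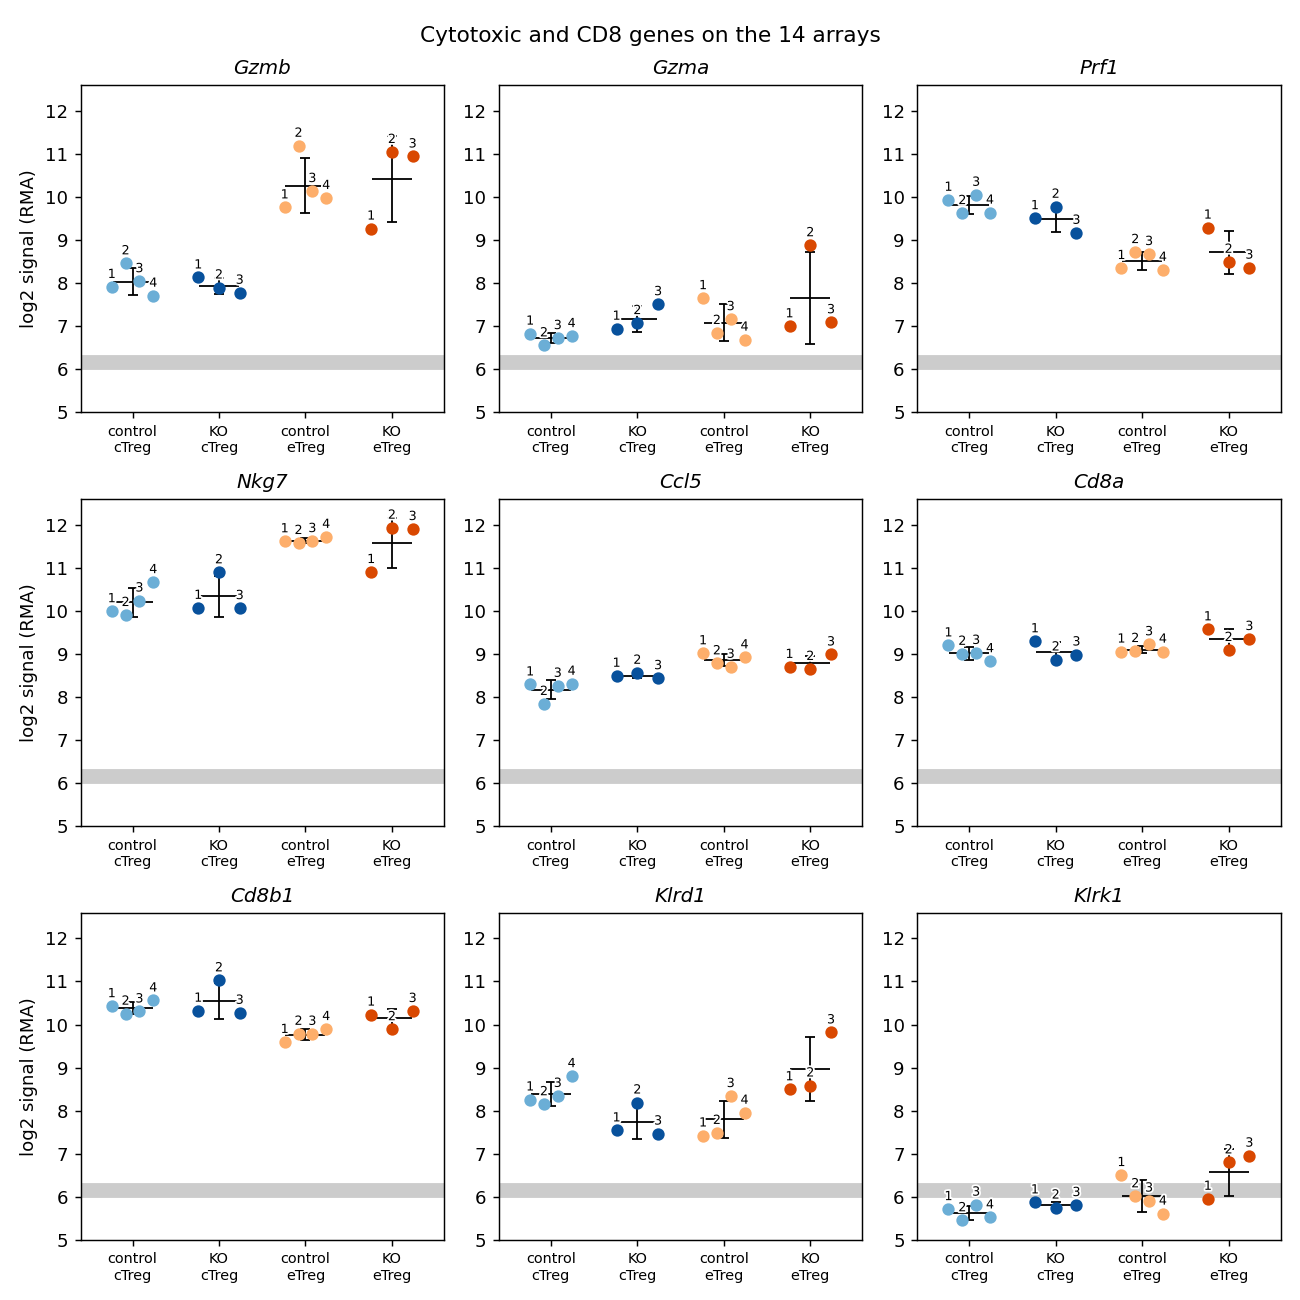
Log2 signal (RMA) of the 9 genes on each of the 14 arrays, 1 panel per gene, with arrays numbered by replicate, the line and bars giving the group mean ± SD and the grey band the range of the background probe medians (6.00 to 6.30). Gzmb and Nkg7 sit higher in both eTreg groups, Prf1 sits lower in control eTregs, and Klrk1 lies at or near the band on most arrays.

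Gzmb, the granule protease that starts apoptosis in the target cell, had the largest difference of the 9 genes between the subsets. In control cTregs it lay at 7.91, 8.46, 8.04 and 7.70, and in control eTregs at 9.75, 11.19, 10.13 and 9.97. Its group means were 8.03 ± 0.32 (SD, n = 4) and 10.26 ± 0.64 (SD, n = 4), and every control eTreg array was above every control cTreg array. The log2 change was 2.24 ± 0.35 (SE; limma adjusted p = 0.00111). Among arrays labelled KO, cTregs were at 8.13, 7.89 and 7.77, and eTregs at 9.26, 11.04 and 10.94, a log2 change of 2.48 ± 0.40 (SE; limma adjusted p = 0.00287). KO eTreg 1 was the lowest of the 7 eTreg arrays for Gzmb and was still above the highest cTreg array. With KO eTreg 1 as the lone array of its group the change was 1.33 (limma adjusted p = 0.277). Between genotypes, Gzmb differed by 0.15 in eTregs (95% interval -0.64 to 0.95) and by -0.10 in cTregs (-0.89 to 0.70), intervals that still hold changes of more than 0.5 in either direction.

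Gzma, the granzyme with trypsin-like activity, was not called in any comparison. It lay at 6.82, 6.55, 6.72 and 6.76 in control cTregs, at 6.94, 7.07 and 7.51 in cTregs labelled KO and at 7.65, 6.84, 7.16 and 6.68 in control eTregs. In eTregs labelled KO it lay at 6.99, 8.87 and 7.09. The single high array, KO eTreg 2, set the mean of its group, whose SD of 1.06 was the largest of any gene and group among the 9. Without that array the eTreg difference between genotypes turned from 0.57 to -0.04. The 3 arrays of cTregs labelled KO were all above the 4 of control cTregs, by 0.46 on average (limma unadjusted p = 0.205). The fit did not call this difference. Of the negative control probe sets, 21.1% to 25.5% were below Gzma in control cTregs and 30.2% to 33.4% in cTregs labelled KO. The lack of overlap therefore lies among values not distinguished from background.

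Prf1, the pore-forming protein that lets granzymes into the target, changed in the opposite direction to Gzmb. It lay at 9.93, 9.62, 10.05 and 9.63 in control cTregs and at 8.35, 8.72, 8.67 and 8.30 in control eTregs. The control means were 9.81 ± 0.21 (SD, n = 4) and 8.51 ± 0.21 (SD, n = 4), with no overlap, and Prf1 fell by 1.30 ± 0.19 (SE; limma adjusted p = 0.000683). In cTregs labelled KO it lay at 9.50, 9.77 and 9.16 and in eTregs labelled KO at 9.29, 8.49 and 8.36. Here KO eTreg 1 lay among the cTreg arrays and the other eTreg arrays were below all of them. The log2 change among arrays labelled KO was -0.77 ± 0.22 (SE; limma adjusted p = 0.0863), without KO eTreg 1 it was -1.06 (limma adjusted p = 0.00189), and with KO eTreg 1 as the lone array it was -0.19 (limma adjusted p = 0.943). The difference of both subset changes was 0.53 (95% interval -0.09 to 1.15, limma adjusted p = 0.844). Higher protease and lower perforin signal stood side by side in control eTregs, each without overlap between the subsets.

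Nkg7, the granule membrane protein, was higher in eTregs and unusually even among control eTregs. It lay at 9.99, 9.90, 10.24 and 10.66 in control cTregs and at 11.61, 11.57, 11.62 and 11.71 in control eTregs, where its SD was 0.06 (n = 4). The log2 change was 1.43 ± 0.23 (SE; limma adjusted p = 0.00163). In cTregs labelled KO it lay at 10.07, 10.89 and 10.06 and in eTregs labelled KO at 10.90, 11.93 and 11.90. KO eTreg 1, at 10.90, was barely above the highest cTreg array labelled KO, which was KO cTreg 2 at 10.89. The change was 1.24 ± 0.27 (SE; limma adjusted p = 0.0210). This call was lost when KO cTreg 1 (limma adjusted p = 0.0984), KO cTreg 3 (0.0953), KO eTreg 2 (0.110) or KO eTreg 3 (0.123) was left out, and with KO eTreg 1 as the lone array of its group the change was 0.56. Between genotypes Nkg7 differed by -0.05 in eTregs (95% interval -0.59 to 0.48) and by 0.14 in cTregs (-0.39 to 0.67).

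Ccl5 was higher in control eTregs than in control cTregs and had a smaller difference among arrays labelled KO. It lay at 8.29, 7.83, 8.25 and 8.30 in control cTregs and at 9.01, 8.78, 8.70 and 8.92 in control eTregs, with no overlap. The log2 change was 0.68 ± 0.12 (SE; limma adjusted p = 0.00353). In cTregs labelled KO it lay at 8.49, 8.56 and 8.43, above all 4 control cTreg arrays, and in eTregs labelled KO at 8.69, 8.65 and 8.98, overlapping the control eTregs. The subset change labelled KO was 0.28 (limma adjusted p = 0.399), and the genotype difference in cTregs was 0.32 (limma unadjusted p = 0.0255, adjusted p = 0.9999). The difference between both genotype effects was -0.40 (95% interval -0.79 to -0.01, limma unadjusted p = 0.0475, adjusted p = 0.813).

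**Figure D2:**
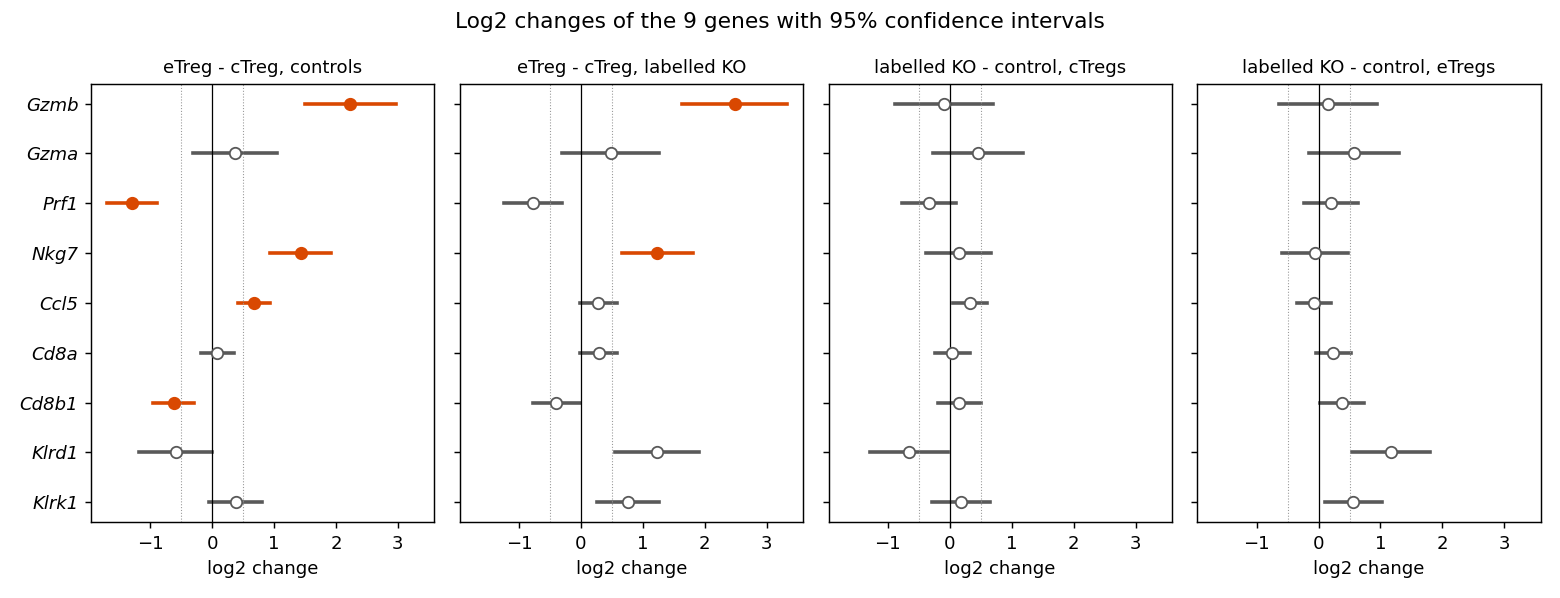
Log2 changes of the 9 genes with 95% confidence intervals from the fit over all 14 arrays, in 4 comparisons; filled orange points passed the adjusted threshold and dotted lines mark a change of 0.5 in either direction. Filled points stand only in the subset comparisons: 5 in controls and 2 in cells labelled KO.

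The CD8 chains, neighbours on chromosome 6, did not share a pattern. Cd8b1, the beta chain, lay at 10.43, 10.25, 10.30 and 10.56 in control cTregs and at 9.59, 9.78, 9.78 and 9.89 in control eTregs. It fell by 0.62 ± 0.15 (SE; limma adjusted p = 0.0319) with no overlap, and this call was lost when any 1 of these 8 arrays was left out (adjusted p 0.0518 to 0.108). In cTregs labelled KO it lay at 10.32, 11.02 and 10.27 and in eTregs labelled KO at 10.23, 9.89 and 10.31, ranges that overlap. The change there was -0.39 (limma adjusted p = 0.331). In eTregs the genotypes differed by 0.38 (limma unadjusted p = 0.0353, adjusted p = 0.567), below the change asked for. In control eTregs 78.5% to 82.2% of the negative control probe sets were below Cd8b1. Probe signal on different genes is not on a common scale, so it gives no ratio of beta to alpha chain.

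Cd8a, the alpha chain, varied least of the 9 genes, with an SD of 0.20 over the 14 arrays. It lay at 9.19, 8.997, 9.02 and 8.83 in control cTregs, at 9.29, 8.87 and 8.98 in cTregs labelled KO, at 9.05, 9.06, 9.22 and 9.05 in control eTregs and at 9.57, 9.09 and 9.34 in eTregs labelled KO. All groups overlapped in every comparison made. Of the negative control probe sets, 60.2% to 76.6% were below Cd8a on the 14 arrays. Its steady signal was therefore not clearly distinguished from background and does not show an expressed gene. The subset change was 0.09 in controls (95% interval -0.17 to 0.35) and 0.29 in cells labelled KO (-0.02 to 0.59), and the genotype difference was 0.24 in eTregs (-0.05 to 0.52) and 0.04 in cTregs (-0.25 to 0.32). Cd4 itself differed by 0.05 between control subsets, and Zbtb7b, which encodes ThPOK and holds the CD4 fate, by -0.12. Runx3, the factor of the CD8 fate, differed by 0.02. Of the 8 genes of the choice between CD4 and CD8 fate, 0 passed the adjusted threshold in limma in any comparison. An unadjusted p below 0.05 was found for 3 between control subsets (12.8% of all transcript clusters), 0 between subsets labelled KO (13.8%), 3 between genotypes in eTregs (8.03%), 0 in cTregs (4.01%) and 2 for the difference of both genotype effects (6.12%).

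Klrd1 was the member whose genotype difference was largest, and it differed in opposite directions in the subsets. In eTregs labelled KO it lay at 8.49, 8.58 and 9.82, and in control eTregs at 7.42, 7.48, 8.34 and 7.95. All 3 arrays labelled KO were above all 4 control arrays, by 1.17 ± 0.30 on average (SE; limma unadjusted p = 0.00129, adjusted p = 0.1999). Klrd1 was below the negative control median on all 4 control eTreg arrays, where 34.5% to 49.2% of the negative control probe sets were lower, and above it on the 3 labelled KO, where 55.8% to 83.6% were lower. In cTregs labelled KO it lay at 7.54, 8.19 and 7.47, and in control cTregs at 8.26, 8.15, 8.34 and 8.80. Here the arrays labelled KO were lower, with KO cTreg 2 overlapping the control range, and the difference was -0.66 ± 0.30 (SE; limma unadjusted p = 0.0434, adjusted p = 0.9999). The genotype effect in eTregs exceeded that in cTregs by 1.82 ± 0.42 (SE; limma unadjusted p = 0.000553, adjusted p = 0.545), so this difference did not pass adjustment over all transcript clusters. Between subsets Klrd1 changed by -0.59 in controls (limma adjusted p = 0.386) and by 1.23 in cells labelled KO (limma adjusted p = 0.0539).

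The Klrd1 difference in eTregs depended on no single array for its direction. It was 1.40 without KO eTreg 1 (limma adjusted p = 0.0273) and 0.70 with KO eTreg 1 as the lone array of its group, and left-out arrays gave 0.74 to 1.40. Without KO eTreg 1 the difference between genotype effects was 2.06 (limma adjusted p = 0.0246), and the subset change labelled KO was 1.47 (limma adjusted p = 0.0126), against 0.76 (limma adjusted p = 0.594) with KO eTreg 1 as the lone array. Klrc1 (NKG2A), a partner of Klrd1 on the cell surface, had a mean of 5.72 in eTregs of controls and 6.07 in those labelled KO, with a genotype difference of 0.35 (limma adjusted p = 0.831). Klrc1 differed by 0.71 between control subsets (limma adjusted p = 0.240) and by 1.00 between subsets labelled KO (limma adjusted p = 0.126).

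Klrk1 lay at the level of the background probes on most arrays. It was at 5.71, 5.45, 5.82 and 5.52 in control cTregs, at 5.87, 5.75 and 5.81 in cTregs labelled KO and at 6.50, 6.01, 5.91 and 5.61 in control eTregs. In eTregs labelled KO it was at 5.95, 6.80 and 6.95. Only control eTreg 1, KO eTreg 2 and KO eTreg 3 were above the highest background probe median of 6.30. The genotype difference in eTregs was 0.56 ± 0.22 (SE; limma unadjusted p = 0.0203, adjusted p = 0.480), 0.87 without KO eTreg 1 (limma adjusted p = 0.0190) and -0.06 with KO eTreg 1 as the lone array. The subset change labelled KO was 0.76 (limma adjusted p = 0.112), with no overlap, 1.07 without KO eTreg 1 (limma adjusted p = 0.00236) and 0.14 with KO eTreg 1 as the lone array (limma adjusted p = 0.966). Hcst (DAP10), the adaptor through which NKG2D signals, differed by 0.01 between genotypes in eTregs.

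By genotype, no member passed the adjusted threshold in limma. In eTregs 0 of 9 were called, against 0.117% of all transcript clusters in either direction, and 3 had an unadjusted p below 0.05 (Klrd1, Klrk1 and Cd8b1), as did 8.03% of all. In cTregs 0 of 9 were called, against 0.0450% of all, and 2 had an unadjusted p below 0.05 (Klrd1 and Ccl5), as did 4.01% of all. For the difference between both genotype effects 0 of 9 were called, against 0 of all, and 2 had an unadjusted p below 0.05 (Klrd1 and Ccl5), as did 6.12% of all. By the study's own threshold, the same change with an unadjusted p below 0.05, Klrd1 and Klrk1 passed as higher in eTregs labelled KO (2 of 9, against 1.90% of all) and none as lower (0.820% of all). In cTregs 0 passed as higher (0.194%) and Klrd1 as lower (1 of 9, against 0.383%), and for the difference of the effects Klrd1 passed as higher (1 of 9, against 1.82%) and none as lower (1.23%). Arrays did not overlap for 1 member in eTregs, Klrd1, higher (3.01% of all, and 3.84% lower with 0 members), and for 2 members in cTregs, Gzma and Ccl5, higher (2.70% of all, and 2.35% lower with 0 members). Without KO eTreg 1, the count in eTregs at the adjusted threshold was 2 and at the study's threshold 4. The share over all transcript clusters was not counted for that fit, so these 2 counts have none to be read against.

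Exact two-sided permutation tests over arrays cannot go below 0.0286 for 4 against 4 or 4 against 3 arrays, or below 0.100 for 3 against 3. All 5 members called between control subsets had the smallest exact permutation p this design allows. Lack of overlap between 4 and 4 arrays fixes that value, so it restates the lack of overlap and adds no second test. Such lack of overlap was found for 6.12% of all transcript clusters higher and 5.02% lower. Klrd1 between genotypes in eTregs had an exact permutation p of 0.0571.

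Genes of the wider lists that passed the adjusted threshold between subsets were all higher in eTregs. In controls they held 5 of 10 effector transcription factors, 0 of 7 other granzymes and 0 of 8 genes of the CD4 and CD8 choice. The calls therefore fell in some of these lists and not in others, and a shift of the genes as a whole was not tested. Besides the members, 87 genes of the same pathway were listed and 80 were on the array, without Gzme, Klra1 and Raet1a to Raet1e. At the adjusted threshold, 13 of 80 were higher between control subsets (2.14% of all transcript clusters) and 0 lower (0.919%), and between subsets labelled KO 18 were higher (2.02%) and 0 lower (0.329%). With KO eTreg 1 as the lone array of its group the count labelled KO was 3. Of the 18, all were still higher on that array than in cTregs, 14 by at least 0.5, and 2 passed. The median log2 change over the 80 genes was 0.16 in controls and 0.18 in cells labelled KO, beside 0.00 and -0.04 over all transcript clusters. In controls 59 of the 80 had a higher mean in eTregs and 21 a lower mean. Arrays of the control subsets did not overlap for 27 genes higher (6.12% of all) and 0 lower (5.02%). Between subsets labelled KO this held for 26 higher (6.46%) and 0 lower (7.49%). Between genotypes 0 of 80 passed in either subset in limma, with 16 in eTregs (8.03% of all transcript clusters) and 3 in cTregs (4.01%) at an unadjusted p below 0.05. Without KO eTreg 3 the count labelled KO was 11, and without KO eTreg 1 the genotype count in eTregs was 9. The shares over all transcript clusters were not counted for these fits, so these counts have none to be read against.

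Effector transcription factors held the largest share, 5 of 10 higher in each genotype. Tbx21 (T-bet), the T-box factor of type 1 effector cells, lay at 7.99, 7.89, 7.94 and 7.99 in control cTregs and at 9.54, 8.79, 8.93 and 9.26 in control eTregs. It rose by 1.18 (limma adjusted p = 0.000692), and by 1.41 among arrays labelled KO (limma adjusted p = 0.00109). Prdm1 (Blimp-1) rose by 2.55 in controls and 2.13 in cells labelled KO, Nfil3 by 1.70 and 1.31, Bhlhe40 by 1.56 and 1.24, and Id2 by 0.93 and 1.05. Eomes, the T-box factor of CD8 memory and NK cells, changed by -0.15 in controls (limma adjusted p = 0.936) and by 0.64 in cells labelled KO (limma adjusted p = 0.427), where KO eTreg 3 was highest at 10.35.

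Among secreted effectors and their receptors, 3 of 10 were higher in each genotype. Ifng, the type 1 cytokine interferon gamma, lay at 7.42, 7.03, 7.33 and 7.57 in control cTregs and at 9.09, 9.74, 9.87 and 9.59 in control eTregs, a log2 change of 2.24 (limma adjusted p = 6.2e-05). In cells labelled KO its change was 1.91 (limma adjusted p = 0.00182). Il18r1 and Il18rap, the chains of the interleukin 18 receptor, rose by 1.59 and 1.14 in controls and by 1.43 and 1.27 in cells labelled KO, where they were the 2 of the 18 that passed with KO eTreg 1 alone (1.08 and 1.70, limma adjusted p = 0.0450 and 0.000619). Granule handling had 2 of 13 higher in each genotype. These were Cst7 (cystatin F), an inhibitor of the proteases that activate granzymes, at 1.43 and 1.36, and Stx11, a membrane fusion protein of granule release, at 1.26 and 1.17.

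Of the other granzymes, 0 of 7 passed in controls in limma, where 0 also had an unadjusted p below 0.05, and 1 of 7 in cells labelled KO. That gene, Gzmk, lay at 7.34, 7.52 and 7.21 in cTregs labelled KO and at 8.39, 8.94 and 10.08 in eTregs labelled KO, a log2 change of 1.78 (limma adjusted p = 0.00399), against 0.52 in controls. With KO eTreg 1 as the lone array the change of Gzmk was 1.03 (limma adjusted p = 0.118). Gzmk differed by 1.26 between both subset changes (limma unadjusted p = 0.00602, adjusted p = 0.736). NK receptors and adaptors had 3 of 26 higher in controls and 6 of 26 in cells labelled KO. Klrb1c (NK1.1) rose by 2.20 and 2.66 and Klrb1f by 1.74 and 1.29. Klrg1, an inhibitory receptor of terminal effector cells, rose by 1.65 in controls and changed by 1.04 in cells labelled KO (limma adjusted p = 0.134). In control cTregs, Tbx21, Prdm1, Ifng, Stx11, Klrb1c, Klrb1f and Klrg1 were at most 7.99 on every array. The lowest negative control median of those arrays was 8.22, so these rises start from signal not distinguished from background and are not exact. Klrb1c averaged 5.87 in control cTregs and 5.82 in cTregs labelled KO, under the background probe medians. Cd244a, Slamf7, Tyrobp and Fcer1g passed among cells labelled KO, at 0.97, 2.19, 1.90 and 1.54, and were at 0.47, 1.34, 1.03 and 0.69 in controls. With KO eTreg 1 alone these changes were 0.18, 1.86, 0.50 and 0.32 (limma adjusted p 0.283 to 0.933), so those of Cd244a, Tyrobp and Fcer1g rested on KO eTreg 2 and 3. None of these 5 differences between genotypes passed as an interaction (limma adjusted p 0.847 to 0.866).

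Ccr3, the eotaxin receptor that also binds Ccl5, rose by 2.35 in cells labelled KO (limma adjusted p = 0.0282) and lay at 6.40, 9.68 and 8.76 in eTregs labelled KO, with KO eTreg 1 close to the highest cTreg array, at 6.35. With KO eTreg 1 alone its change was 0.47 (limma adjusted p = 0.825). Ccr1 changed by 0.45 in controls and by 0.04 in cells labelled KO. Ligands of NKG2D gave 0 of 4 called, and 0 with an unadjusted p below 0.05, in each of the 5 comparisons.

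**Figure D3:**
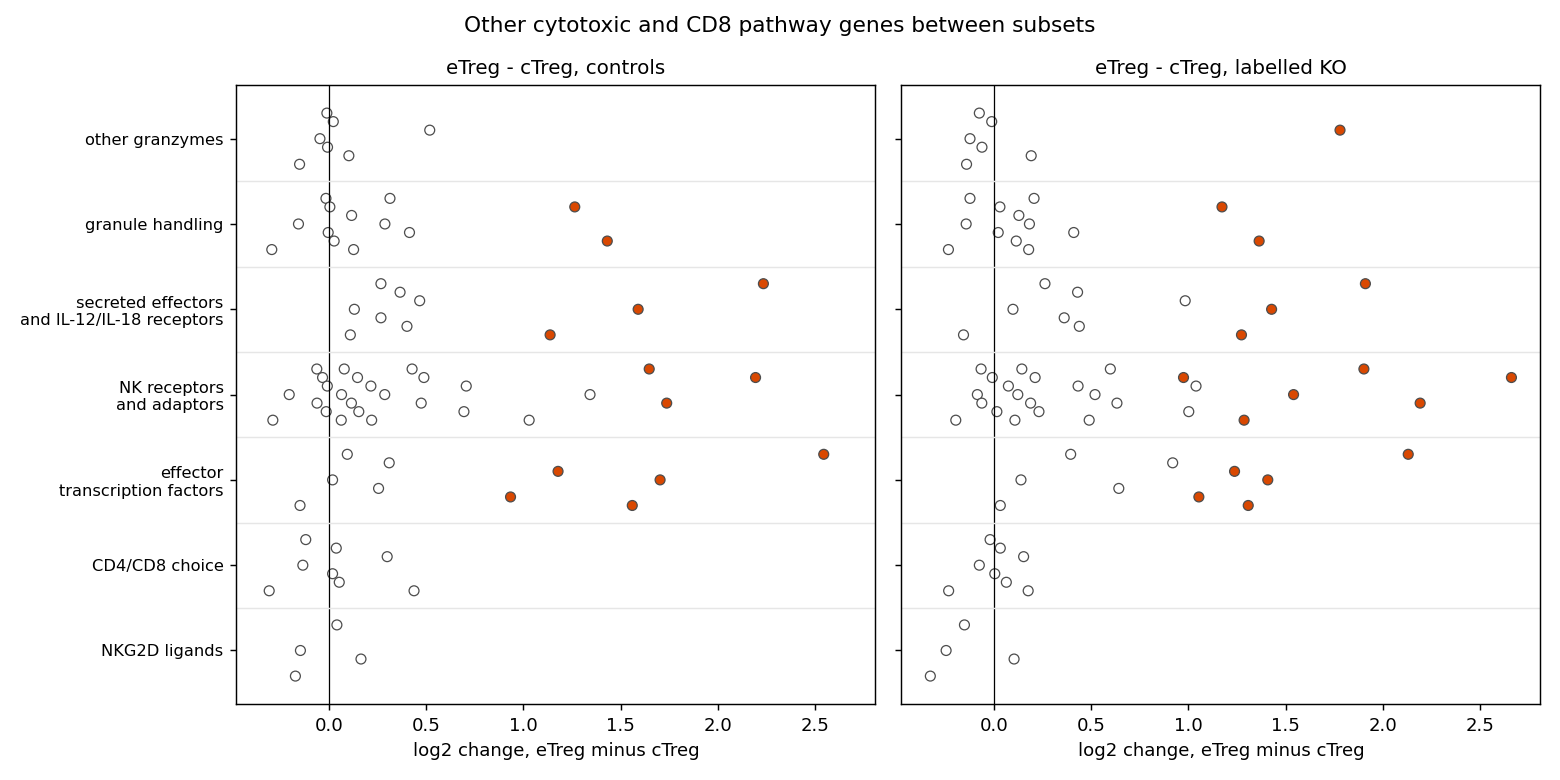
Log2 change from cTreg to eTreg of the other pathway genes in 7 groups by role, without chemokine receptors, in controls (left) and in cells labelled KO (right); each circle is a gene and filled circles passed the adjusted threshold. All filled circles, 13 on the left and more on the right, lie to the right of 0.

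Marker genes of other cell types moved with some of these values. The lists of NK cells with type 1 innate lymphoid cells (13 genes) and of CD8 T cells (11 genes) themselves hold members (Gzma and Prf1 in the first, Cd8a, Cd8b1, Nkg7, Ccl5 and Klrk1 in the second), so only their other genes are apart from the results. The summed linear signal of the 12 T cell and Treg genes was 67400 to 77750 on all arrays. The NK list summed to 2814 to 3424 in cTregs of both genotypes, 3211 to 4570 in control eTregs, 3762 in KO eTreg 1, 6666 in KO eTreg 2 and 8556 in KO eTreg 3. The CD8 T list summed to 7204 to 10520 in eTregs labelled KO and to 7247 to 7615 in their controls. The highest Klrd1 value, 9.82, and the highest NK sum were both in KO eTreg 3. KO eTreg 2 had the next highest NK sum, but its Klrd1 value was 8.58, close to 8.49 in KO eTreg 1. Of the 13 genes of the NK list, 10 had a higher mean in eTregs labelled KO than in control eTregs and 3 a lower mean. Ncr1 (NKp46), a defining NK gene, was at 7.47 in KO eTreg 3 and at 6.30 to 6.98 elsewhere, below the negative control medians on every array. The part of such cells in the Klrd1 and Klrk1 differences was not tested, beyond the value of KO eTreg 1 alone.

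Monocyte and macrophage markers (14 genes) summed to 25450 and 24980 in KO eTreg 2 and 3, to 4984 in KO eTreg 1, to 5927 to 8184 in control eTregs and to 4033 to 4862 in cTregs. Csf1r, the receptor of macrophage growth factor, was at 11.90 and 11.69 in KO eTreg 2 and 3 and at 8.99 in KO eTreg 1. Tyrobp and Fcer1g are shared by NK and myeloid cells, and Tyrobp was at 10.94 and 11.44 in KO eTreg 2 and 3 against 9.08 in KO eTreg 1. The type 1 dendritic cell list (12 genes, with Cd8a among them) summed to 6682 to 11050 in eTregs labelled KO and to 6136 to 7570 in control eTregs, and Xcr1 of this list was highest, at 8.49, in KO eTreg 3. The plasmacytoid dendritic cell list (12 genes) summed to 12080 to 15120 and to 10110 to 11390, and Siglech of this list was higher in eTregs labelled KO by 1.78 (limma adjusted p = 0.000483), and by 1.15 with KO eTreg 1 alone (limma adjusted p = 0.0268). For Gzmb and Nkg7, KO eTreg 2 and 3, with the high myeloid sums, were above KO eTreg 1. The monocyte and macrophage sums and the type 1 dendritic cell sums of control eTregs were also above those of all cTregs. The plasmacytoid sums of control eTregs were not, at 10110 to 11390 against 10770 to 12950 in cTregs. The part of such cells in the subset differences was not tested. Neutrophil markers (8 genes) summed to 1681, 1995 and 1761 in eTregs labelled KO, to 1379 to 1737 in control eTregs and to 1449 to 1694 in cTregs. S100a8 of this list lay between 5.54 and 6.82 over the 14 arrays, and Cxcr2 differed by 0.72 between genotypes in eTregs (limma unadjusted p = 0.00298, adjusted p = 0.262).

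**Figure D4:**
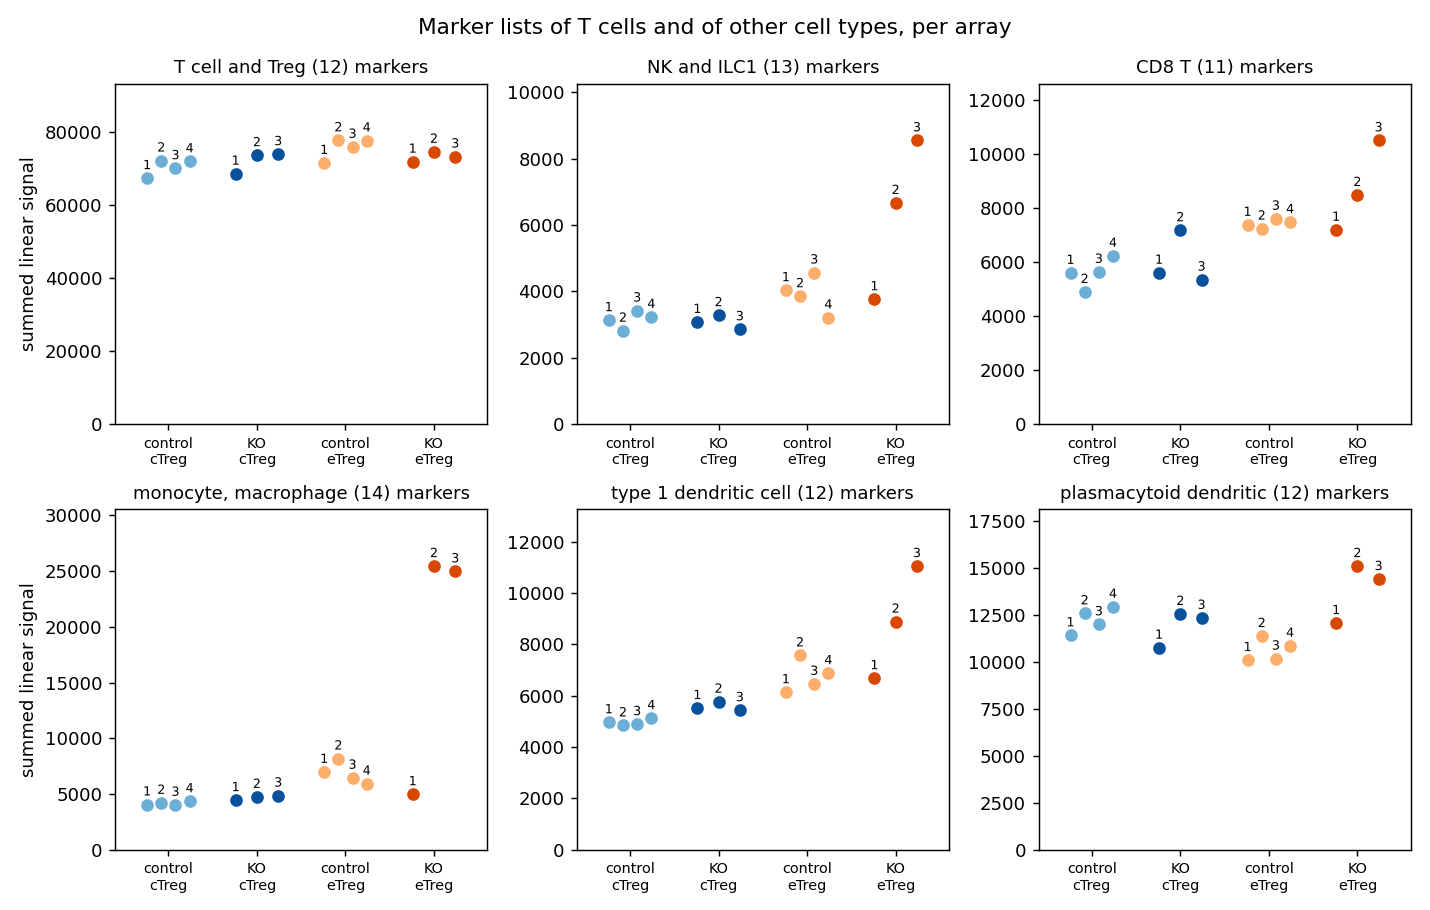
Summed linear signal of 6 marker lists on each of the 14 arrays, numbered by replicate. KO eTreg 2 and 3 stand above the other arrays for monocyte and macrophage markers (25450 and 24980 against at most 8184) and for NK and type 1 innate lymphoid markers, while T cell and Treg markers lie between 67400 and 77750 everywhere.

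Over the 14 arrays the 9 genes fell into those that followed the subset and those that did not. Gzmb and Nkg7 varied together (Pearson's r = 0.88), and Prf1 opposite to both (-0.85 with Gzmb, -0.86 with Nkg7). These points share the split into subsets, and after the group means were taken out r was 0.35 for Gzmb with Nkg7, -0.36 for Gzmb with Prf1 and -0.34 for Nkg7 with Prf1. Klrd1 was not close to any of the 3, at 0.21, 0.27 and -0.04, and within groups it was nearest to Cd8b1 (0.65) and Nkg7 (0.63). The transcript clusters most like each member over the 14 arrays are given as a description. They were Gna15, Abhd4 and Gcnt1 for Gzmb (r = 0.98 each), Slc39a4, Myo3b and S100a10 for Nkg7 (0.98, 0.97 and 0.97) and Rab3ip, Treml2 and Pced1b for Prf1 (0.94, 0.94 and 0.93). For Ccl5 they were 2900026A02Rik, Whsc1 and Serpina3g (0.90, 0.89 and 0.89), for Cd8b1 Ifngr2, Rtn4rl1 and Dag1 (0.92, 0.87 and 0.85), and for Klrk1 Cd244, a receptor of the NK list, Tmem51 and Igf1 (0.94, 0.93 and 0.93). Klrd1 had no close match, with Fer highest at 0.80, and Gzma and Cd8a had Ggt1 at 0.86 and Lrrc18 at 0.85.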

How the data were processed

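Clariom S mouse arrays read total RNA of sorted Tregs. The deposited values are log2 signals, which the authors made by robust multi-array average (RMA: background correction, quantile normalisation and median polish) in Affymetrix Expression Console 1.1, per the labels. Quantile normalisation gives all arrays 1 distribution, so a shift of all genes together cannot be seen, and array scans were not used here. Of 28846 entries, 6643 were controls or had no symbol, and 0 were marked as cross-hybridising. The other 22203 transcript clusters were tested without a filter on signal.

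Groups came from the sample titles. One mean per group was fitted to all 14 arrays by lmFit and eBayes of limma 3.58.1 under R 4.3.3, with 5.65 prior and 10 residual degrees of freedom, and 5 contrasts were drawn from it: each subset within a genotype, each genotype within a subset, and the interaction. P-values are two-sided and adjusted (Benjamini-Hochberg) over all transcript clusters, and intervals are 95% intervals of the fit. The test was checked on simulated data. The 9 genes, the wider lists, the marker lists and the motifs were chosen with earlier results of these data known. Genes other than the 9 are named where they passed the adjusted threshold in a wider list, were fixed lineage or marker genes, or were among the 3 transcript clusters with the highest r, if their SD over arrays was 0.3 or more. Klrc1, Hcst and Ccr1 were added as partners of members after their values were seen. Promoters came from RefSeq (GRCm38.p6). Alternatives were other samples in the fit, array weights, a signal filter (above the median mean signal), 2 other scalings, 2 variance priors, a replicate block and each array left out. A fit without KO eTreg 2 and 3 was added after the data were seen. Replicate numbers were not taken as pairs: deviations of same-numbered cTregs and eTregs correlated at 0.04 to 0.30, not above 0.1 for every number. With 3 or 4 arrays a group, precision is limited by their number.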

Additional observations from a re-analysis of the deposited data

Results flagged for a closer look

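In 2 of the 18 gene and group combinations with 4 arrays, 1 array lay far from the others of its group, and chance alone marks about 1 in 20 such groups. Cd8a was at 9.22 in control eTreg 3, with the nearest array at 9.06. Ccl5 was at 7.83 in control cTreg 2, with the nearest array at 8.25.

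The genotype effect differed between the subsets, at an unadjusted limma p below 0.05, for 2 of the 9 genes and for 6.12% of all transcript clusters. For Klrd1 the effect in eTregs exceeded that in cTregs by 1.82 on the log2 scale (limma unadjusted p = 0.000553, adjusted p = 0.545), with all 3 eTreg arrays labelled KO above all 4 control eTreg arrays. For Ccl5 the difference was -0.40 (limma unadjusted p = 0.0475, adjusted p = 0.813), with all 3 cTreg arrays labelled KO above all 4 control cTreg arrays. Neither passed after adjustment over all transcript clusters.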

How the results depend on the processing

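Over all alternatives, 1033 changes of single genes were recomputed, and 971 kept their direction and their side of the adjusted threshold, 29 turned direction, 17 newly passed and 16 no longer passed. In controls the count of members called between subsets stayed at 4 to 5, and Gzmb, Nkg7, Ccl5 and Prf1 passed under every alternative that tested them. In cells labelled KO that count of 2 became 5 with array weights or a random replicate block, 1 with a fit of only the groups compared, 0 with KO eTreg 1 alone in its group, and 1 to 5 with an array left out. The genotype count in eTregs at the adjusted threshold went from 0 to 2 with array weights and ranged from 0 to 2 with an array left out. At the study's threshold it was 0 with the signal filter, 1 with a fit of only the groups compared, and 1 to 4 with an array left out. The count of 1 in cTregs became 0 with array weights, the signal filter, eBayes with trend and robust, and a random replicate block, and was 0 to 1 with an array left out. For the interaction at the study's threshold the count of 1 became 2 with array weights, 0 with the signal filter and 3 with KO eTreg 1 alone in its group, and was 1 to 3 with an array left out. At the adjusted threshold it was 0 to 1. The signal filter left out Gzma, Ccl5, Klrk1 and Klrd1, and called wider genes fell to 5 in controls and 7 in cells labelled KO. The latter count was 9 with a fit of only the groups compared, 3 with KO eTreg 1 alone in its group and 11 to 25 with an array left out. The replicate numbers were not taken as pairs, since 2 of 7 correlated below 0.1. As a random block (correlation 0.24) the number made Prf1, Klrd1 and Klrk1 pass in cells labelled KO, and as a fixed block it took Cd8b1 out in controls (adjusted p = 0.0856). For 6 of 7 numbers the sample correlated best with its own number. The cause of these changes was not tested. Shares over all transcript clusters were not counted under the alternatives, so the counts given here have none to be read against.

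None of the changes that turned direction was called. With array weights, Ccl5 (0.017) and Nkg7 (0.11) turned between genotypes in eTregs, and Cd8a (-0.018) in cTregs. With KO eTreg 1 alone in its group, the genotype difference in eTregs turned for Gzma (-0.089), Gzmb (-0.999) and Klrk1 (-0.055), the subset change labelled KO for Gzma (-0.18), and the interaction for Gzma (-0.55), Gzmb (-0.90) and Klrk1 (-0.24). With an array left out, genotype differences in eTregs were -0.16 to 0.73 for Gzmb, -0.042 to 0.90 for Gzma, -0.23 to 0.28 for Nkg7 and -0.086 to 0.38 for Prf1. In cTregs they were -0.084 to 0.13 for Cd8a, -0.088 to 0.29 for Cd8b1, -0.20 to 0.047 for Gzmb and -0.13 to 0.30 for Nkg7. The subset change of Gzma labelled KO was -0.13 to 0.81, and interactions were -0.50 to 0.44 for Gzma, -0.066 to 0.82 for Gzmb and -0.37 to 0.14 for Nkg7. Klrk1 lay near the background probes, which may understate its changes.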
